A study of Mus musculus with 18 samples.

Results

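The anti-IgM response of WT B cells was described from 6 of the 18 RNASeq libraries of the series, 3 from cells treated with anti-IgM and 3 from resting cells. The libraries were chosen by their sample labels. B cells were purified from spleens of WT C57BL/6 N mice that were at least 8 weeks old. They were left without stimulation or given anti-IgM at 10 μg/mL, as F(ab)2 antibody fragments that crosslink the B cell receptor, and were harvested at 4 hr. Each library holds the pooled replicate wells of a single experiment. A further 3 WT libraries came from cells given 20 μg/mL LPS from K12 E. coli for 4 hr. The remaining libraries came from *Ubqln1*-/- cells (Ubiquilin-1 KO in the labels), whose exon 2 of *Ubqln1* is deleted in every cell, with the same treatments and 3 libraries per group. Levels are given in CPM, each gene's count scaled to a common library size (counts per 1000000, after TMM scaling), always in the order of replicates 1, 2 and 3, and differences are log2 fold changes with their standard errors. In RNA from a mixed culture, fewer cells of a type and less RNA per cell cannot be told apart.

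The B cell receptor (BCR) is a membrane immunoglobulin, here IgM, held by the signalling chains CD79A and CD79B. Crosslinking activates the kinases LYN, SYK and BTK and the lipase PLCG2. The signal then branches into calcium release and NFAT, diacylglycerol and RAS-ERK, NF-kB, and PI3K. ERK and calcium drive a first wave of transcription factor genes (*Egr*, *Nr4a*, *Myc*), and PI3K inactivates FOXO1, which otherwise maintains genes of resting cells. LPS is sensed by TLR4 and RP105 and induces NF-kB and interferon-stimulated genes.

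The counts summed to between 15368941 and 24725416 in resting, 19875860 and 26466299 in anti-IgM-treated and 28590363 and 41072854 in LPS-treated WT libraries. Replicate libraries correlated at 0.987 to 0.992 in log2 CPM over the tested genes, and the biological coefficient of variation was 10.1%. The 8 B cell markers summed to between 7666 and 9195 CPM in resting libraries and between 2857 and 3530 CPM after anti-IgM, where 7 of the 8 fell and *Cr2* rose. The markers fit the labelled cell type, though most of them moved with the stimulus. Markers of other cells summed to less than the B cell markers in every group. *Cd3e*, *Cd3d*, *Cd3g*, *Cd4*, *Cd8b1* and *Thy1* stayed under 1 CPM in all 9 WT libraries, while the sum of the 9 measured T cell markers moved from between 47.7 and 62.3 to between 135 and 232 CPM through *Lck* and *Cd5*. The 9 monocyte, macrophage and neutrophil markers summed to between 115 and 194 CPM at rest and between 60.5 and 102 CPM after anti-IgM, mostly *Mpeg1*, and *Ly6g* was at 0. Natural killer cell markers summed to at most 5.03, erythroid markers to at most 4.56 and platelet markers to at most 8.02 CPM. Dendritic cell markers summed to between 14.1 and 23.7 CPM at rest and between 23.3 and 31.9 CPM after anti-IgM, and plasma cell markers to between 354 and 585 and between 335 and 544 CPM. Their part in the results was not tested.

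Anti-IgM changed the level of most tested genes. Of 14161 tested genes, 243 were higher and 289 were lower by an absolute log2 fold change over 2 with an adjusted p under 0.001 (1.72% and 2.04%). At an adjusted p under 0.05 alone, 4588 rose and 4558 fell (32.4% and 32.2%), so that a gene list is best read against a background in which about 1 gene in 3 rose and as many fell. The median log2 fold change of all tested genes was −0.01. TMM scaling holds this median close to no change, so rises and falls are relative to the bulk of genes. A change in total RNA per cell would not show in these levels. The 3 anti-IgM libraries lay above the 3 resting libraries for 33.4% of the tested genes and below them for 32.8%. All 243 and all 289 genes past the stricter thresholds showed no overlap between the groups, which their choice from the same libraries largely gives. The 243 higher genes were mostly silent or low at rest, with a median over genes of 2.31 CPM, and reached a median of 14.1 CPM. The 289 lower genes went from a median of 13.5 to 2.48 CPM. Protein-coding genes made up 209 of the higher and 242 of the lower genes. Among the named genes, 100 of 236 overlap another annotated gene, and reads from a library kit that does not mark strand cannot be assigned to one strand there.

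**Figure D1:**
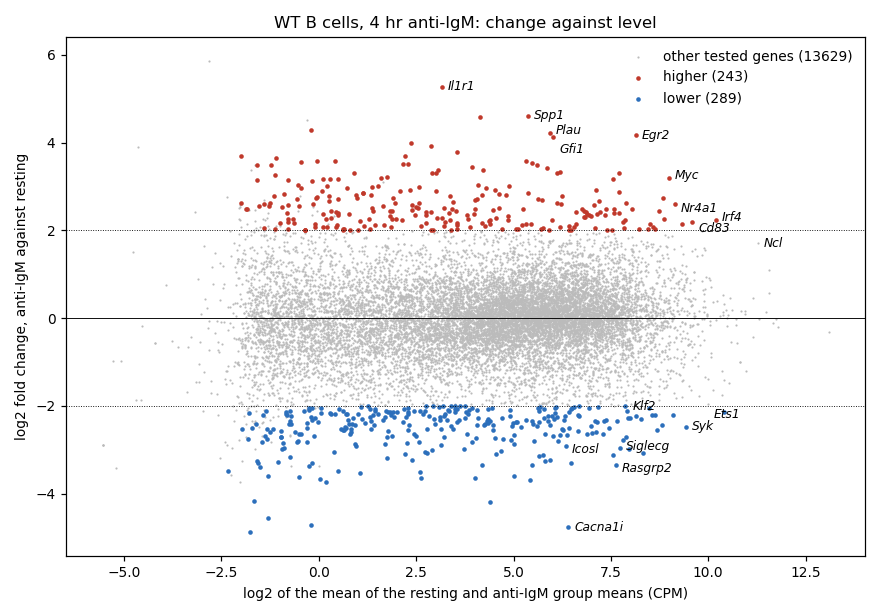
Change against level for the 14161 tested genes in WT cells, with the log2 of the mean of the resting and anti-IgM group means in CPM on the x axis and the log2 fold change on the y axis. The 243 higher (red) and 289 lower (blue) genes lie beyond the dotted lines at 2 and −2, and *Il1r1* and *Cacna1i* are at 5.27 and −4.76.

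The early response factors of the EGR and NR4A families rose. Of 13 tested members of this list, 9 rose and 0 fell, with a median log2 fold change of 1.36, and 6 passed the stricter thresholds. Beside that 0, edgeR called 1 member lower with only the 2 groups in the fit or without WT resting replicate 1, and 2 with the replicate block. *Egr2* (zinc finger factor, GRCm38 chromosome 10, 67534469 to 67542188) was at 23.6, 34.8 and 30.8 CPM at rest and 605, 494 and 514 CPM after anti-IgM. The groups were far apart, and the log2 fold change was 4.17 ± 0.19 (edgeR adjusted p = 7.22e-11). *Egr1* went from 47.0, 42.6 and 29.2 to 390.4, 196 and 169.6 CPM (2.67 ± 0.33), with replicate 1 above the others in both groups. *Egr3* went from 39.8, 42.7 and 32.0 to 315, 204 and 169.9 CPM (2.59 ± 0.21). None of the anti-IgM libraries overlapped the resting ones for these 3 genes, and they lay above them for 33.4% of all tested genes.

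The nuclear orphan receptor genes *Nr4a1*, *Nr4a2* and *Nr4a3*, which encode ligand-independent receptors induced by antigen receptor signals, rose together. *Nr4a1*, also known as Nur77 and used as a reporter of BCR signalling, went from 109, 181 and 191 to 996, 917 and 989 CPM (2.59 ± 0.22, edgeR adjusted p = 2.52e-08). *Nr4a3* went from 7.67, 14.0 and 17.3 to 117, 127 and 154 CPM (3.33 ± 0.24), and *Nr4a2* from 2.17, 6.20 and 9.91 to 63.2, 66.5 and 93.7 CPM (3.57 ± 0.42). The lowest anti-IgM value of each exceeded the highest resting value by several times. Of the rest of the list, *Nab2*, a corepressor that binds EGR proteins, rose from a mean of 91.6 to 235 CPM (1.36 ± 0.19), and *Ier2* (0.72 ± 0.13) and *Srf* (0.34 ± 0.08) rose less. *Ier3*, *Ier5*, *Ier5l* and *Nab1* did not pass, with log2 fold changes of −0.11, −0.11, −0.44 and −0.19, and *Egr4* was under the expression filter.

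**Figure D2:**
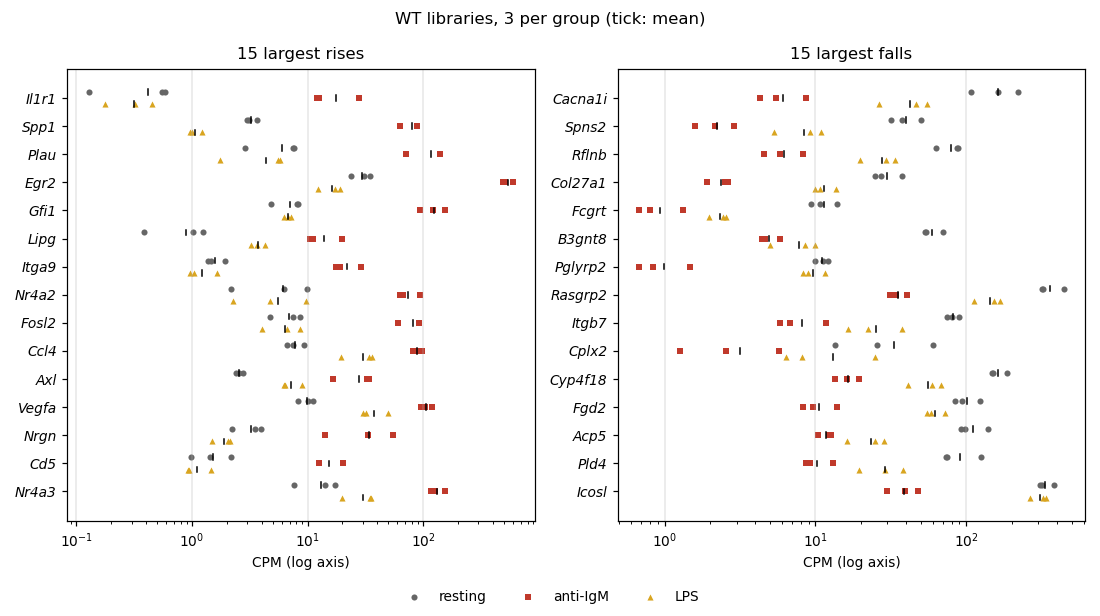
Level in each WT library, in CPM on a log axis, of the 15 genes with the largest rise (left) and the 15 with the largest fall (right) where the higher group averaged 10 CPM or more. Circles are resting, squares anti-IgM and triangles LPS libraries, ticks are group means, and the genes were chosen so that every anti-IgM library lies beyond every resting library.

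RefSeq gives start sites for part of the tested genes, and the window from 250 bases before to 50 bases after a start was searched for motifs on both strands. The windows of *Egr2*, *Nr4a1* and *Fosl2* are shown because these regulators changed strongly and hold matches to motifs of signal-dependent factors. The sequences are RefSeq's in GRCm38.p6, 5′ to 3′ on the gene's own strand, which is plus for all 3. Capitals mark a match to the SRF CArG box in *Egr2* (chr10:67537620-67537919), to NF-kB and to the EGR motif GCGNGGGCG in *Nr4a1* (chr15:101266596-101266895) and in *Fosl2* (chr5:32136222-32136521).
Egr2: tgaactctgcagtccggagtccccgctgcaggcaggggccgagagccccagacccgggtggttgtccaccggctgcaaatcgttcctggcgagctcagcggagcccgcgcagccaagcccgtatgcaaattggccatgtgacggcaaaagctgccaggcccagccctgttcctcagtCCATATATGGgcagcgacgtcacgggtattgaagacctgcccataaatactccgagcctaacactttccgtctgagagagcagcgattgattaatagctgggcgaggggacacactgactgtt
Nr4a1: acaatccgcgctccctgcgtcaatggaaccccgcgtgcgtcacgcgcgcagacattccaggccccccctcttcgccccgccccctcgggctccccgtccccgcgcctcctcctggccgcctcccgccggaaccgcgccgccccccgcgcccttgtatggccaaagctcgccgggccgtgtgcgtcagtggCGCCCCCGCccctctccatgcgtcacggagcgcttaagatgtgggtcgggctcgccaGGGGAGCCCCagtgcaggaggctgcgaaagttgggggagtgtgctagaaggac
Fosl2: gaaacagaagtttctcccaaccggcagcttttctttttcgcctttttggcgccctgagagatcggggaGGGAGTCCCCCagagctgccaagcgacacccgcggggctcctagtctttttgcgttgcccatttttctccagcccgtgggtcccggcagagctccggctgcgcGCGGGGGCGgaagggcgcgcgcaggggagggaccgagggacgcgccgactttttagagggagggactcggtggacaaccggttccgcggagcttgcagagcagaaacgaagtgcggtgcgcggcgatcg
The CArG box of *Egr2* lay 73 to 64 bases before the start, and the EGR match of *Nr4a1* 60 to 52 bases before it. The capitals near the start of the *Fosl2* window are 2 NF-kB matches that overlap by all but 1 base. A CArG box was found in 6 of 228 windows of the higher genes (2.63%), 4 of 270 of the lower genes (1.48%) and 163 of 12739 of all tested genes (1.28%). The 6 windows belong to 3 genes, and 4 of them are overlapping or neighbouring starts of *Egr2*. EGR matches were in 10.5% of windows of the higher, 4.44% of the lower and 10.2% of all tested genes, and E-boxes (CACGTG, bound by MYC and MAX) in 13.6%, 5.19% and 10.0%. AP-1 matches (TGANTCA) were in 5.70%, 8.52% and 5.12%, CRE matches (TGACGTCA) in 2.63%, 0.370% and 3.06%, TATAAA in 8.77%, 9.26% and 7.07%, and NF-kB matches in 7.89%, 7.41% and 5.14%. These shares describe letters in the windows and were not tested, and 169 of the 243 higher and 198 of the 289 lower genes had a window.

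AP-1 is a dimer of FOS and JUN family proteins, and BATF and small MAF proteins share its DNA-binding fold. In this list 8 of 13 tested members rose and 1 fell, or 2 without WT anti-IgM replicate 1. *Fosl2* went from 4.73, 8.61 and 7.42 to 60.8, 91.6 and 91.5 CPM (3.53 ± 0.25, edgeR adjusted p = 5.55e-09), and *Maff* from 4.79, 6.82 and 6.52 to 52.0, 41.0 and 38.2 CPM (2.84 ± 0.18). *Atf3* (means of 4.72 and 27.4 CPM) and *Fosl1* (2.35 ± 0.32) also passed the stricter thresholds. The classical members were different. *Fos* and *Fosb* were at means of 4.10 and 6.37 CPM at rest and 5.90 and 8.97 CPM at 4 hr and did not pass, nor did *Jun* (−0.23 ± 0.16). *Junb* rose (0.84 ± 0.12), while *Jund*, the most abundant member at rest, fell from 506, 512 and 439 to 243, 177 and 189 CPM (−1.26 ± 0.13).

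The largest rises outside these families were in receptors, adhesion molecules and secreted factors. *Il1r1*, the signalling receptor for IL-1 (GRCm38 chromosome 1, 40222480 to 40316201), had the largest rise of the genes named here. It was at 0.128, 0.584 and 0.548 CPM at rest, close to absent, and at 27.9, 12.6 and 12.1 CPM after anti-IgM (5.27 ± 0.54, edgeR adjusted p = 2.54e-07). The lowest anti-IgM library was still above 10 CPM, and replicate 1 was more than 2 times as high as the others. *Il1r2*, the IL-1 decoy receptor, rose from a mean of 6.80 to 25.1 CPM (1.87 ± 0.13). *Spp1*, which encodes osteopontin, went from 3.00, 3.12 and 3.64 to 89.0, 88.0 and 62.7 CPM (4.62 ± 0.19). The unnamed Entrez gene 100503439 moved in the same way (4.59 ± 0.22). *Plau*, the urokinase plasminogen activator, went from 2.88, 7.68 and 7.52 to 70.8, 139.9 and 139 CPM (4.23 ± 0.40), with replicate 1 the lowest in both groups. *Vegfa*, the endothelial growth factor, went from 8.31, 11.1 and 10.1 to 103, 119.5 and 96.2 CPM (3.42 ± 0.21).

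The chemokine genes *Ccl4* and *Ccl3*, which recruit T cells and monocytes, rose from 6.65, 9.35 and 7.52 to 98.1, 88.5 and 81.4 CPM (3.49 ± 0.26) and from 3.26, 4.17 and 3.49 to 33.0, 25.6 and 31.7 CPM (3.03 ± 0.31). The 2 genes overlap in the annotation. *Gfi1*, a transcriptional repressor of blood cells, went from 8.31, 8.14 and 4.83 to 154, 121 and 93.5 CPM (4.12 ± 0.18). *Nrgn*, neurogranin, a calmodulin-binding protein, was spread out among anti-IgM libraries, at 55.2, 33.5 and 14.1 CPM against 2.24, 3.97 and 3.49 CPM at rest (3.38 ± 0.37). *Axl*, a receptor kinase for GAS6, was at 34.0, 32.9 and 16.6 CPM against 2.75, 2.53 and 2.39 (3.45 ± 0.39). *Itga9*, an integrin chain, was at 19.1, 17.5 and 28.9 CPM against 1.47, 1.36 and 1.94 (3.78 ± 0.31). *Lipg*, endothelial lipase, was at 20.0, 10.6 and 11.2 CPM against 0.384, 1.01 and 1.25 (3.92 ± 0.40). *Spp1*, *Plau* and *Axl* are also expressed by macrophages. In the same libraries the macrophage genes *Lyz2* was at 3.26, 4.95 and 6.82 CPM at rest and 2.51, 4.05 and 6.48 CPM after anti-IgM, and *Csf1r* at 2.49, 2.53 and 3.39 and at 1.40, 1.55 and 2.79 CPM.

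DUSP, Sprouty and RGS genes encode feedback inhibitors of the RAS-ERK and G protein pathways. Of 17 members of this list, 12 rose and 2 fell, with a median log2 fold change of 1.01. *Rgs1*, which shortens chemokine receptor signals, went from 4.22, 6.27 and 5.43 to 47.5, 40.5 and 34.5 CPM (2.92 ± 0.21). *Spry1*, an inhibitor of RAS-ERK signalling, went from 2.49, 1.44 and 1.15 to 6.62, 13.1 and 8.81 CPM (2.53 ± 0.29). *Spry4* rose from 0.00, 0.117 and 0.0996 to 2.51, 1.21 and 1.27 CPM (4.29 ± 0.70), a fold that rests on few reads at rest. The ERK phosphatase gene *Dusp4* rose from a mean of 81.7 to 274 CPM (1.74 ± 0.26) and *Dusp2* from 216 to 466 CPM (1.11 ± 0.16). *Dusp6* and *Dusp5* did not pass, at 0.04 ± 0.19 and −0.33 ± 0.40, and *Dusp7* (−0.71 ± 0.10) and *Dusp10* (−0.69 ± 0.22) fell. The call for *Dusp10* was lost without WT resting replicate 1 (log2 fold change −0.36, edgeR adjusted p = 0.115).

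In the NFAT and calcium list 4 of 19 tested members rose and 11 fell, with a median of −0.57. Those that rose were *Orai1*, the pore of the store-operated calcium channel (35.8, 45.8 and 34.8 to 137, 141 and 122 CPM, 1.78 ± 0.10), *Rcan1*, a calcineurin inhibitor and classical NFAT target (1.53 ± 0.14), *Nfatc1* (371 to 706 CPM on average, 0.93 ± 0.06) and the plasma membrane calcium pump gene *Atp2b1* (0.89 ± 0.08). The IP3 receptor genes all fell, *Itpr3* from 565, 477 and 627 to 161, 143 and 188 CPM (−1.76 ± 0.16), *Itpr2* (−1.35 ± 0.16) and *Itpr1* (−0.45 ± 0.07). The calcium sensor *Stim1* (−1.19 ± 0.13) and the calcineurin catalytic gene *Ppp3ca* (196 to 67.4 CPM, −1.54 ± 0.07) fell too, while *Ppp3cb* (0.02 ± 0.05) did not pass.

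NF-kB genes encode the subunits and their own inhibitors. Of 14 members, 11 rose and 2 fell, and none reached a log2 fold change of 2. *Rel*, the subunit most tied to B cell activation, went from 148, 145 and 197 to 481, 525 and 524 CPM (1.64 ± 0.13). The inhibitor genes *Nfkbie* (1.66 ± 0.08) and *Tnfaip3* (1.63 ± 0.09) rose beside it, as did *Nfkbiz* (1.06 ± 0.10) and *Nfkbid* (1.02 ± 0.10). *Rela* was steady in level at 223 and 218 CPM (−0.04 ± 0.06) and did not pass. *Bcl3*, a nuclear coactivator of p50 and p52, fell from 98.9, 117 and 104 to 30.3, 27.1 and 31.4 CPM (−1.85 ± 0.11), and *Tnip1* fell (−0.50 ± 0.07).

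Genes of the receptor complex and its coreceptors mostly fell. Of 18 members, 14 fell and 3 rose, and the median log2 fold change was −1.15. The signalling chain gene *Cd79a* went from 1435, 1314 and 1264 to 465, 335 and 374 CPM (−1.77 ± 0.13) and *Cd79b* from a mean of 2186 to 784 CPM (−1.48 ± 0.11). Inhibitory receptors fell too, among them *Siglecg* from 488, 339 and 302 to 58.9, 39.9 and 47.0 CPM (−2.95 ± 0.21), *Pecam1* from 267, 219 and 230.4 to 47.9, 29.5 and 40.8 CPM (−2.60 ± 0.15), *Pirb* (−2.29 ± 0.15), *Cd22* (−1.80 ± 0.22) and *Fcgr2b* (−1.29 ± 0.16). *Cd5*, an inhibitory coreceptor of B-1 and anergic B cells and of T cells, went the other way. It was at 2.17, 0.974 and 1.44 CPM at rest and 20.4, 12.7 and 12.6 CPM after anti-IgM (3.37 ± 0.26), in libraries where *Cd3e* was at 0.0399, 0 and 0.0506 CPM. *Cd72* (0.86 ± 0.13) and *Cr2* (0.36 ± 0.13) rose less, and *Ptpn6* did not pass (0.08 ± 0.15).

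Of 25 members of the proximal signalling list, 17 fell and 4 rose, with a median of −0.62. *Syk*, the kinase that binds phosphorylated CD79, went from 1291, 1123 and 1095 to 239.6, 186 and 205 CPM (−2.48 ± 0.09, edgeR adjusted p = 1.75e-11). *Rasgrp2*, an exchange factor for RAP GTPases, went from 444, 321 and 318 to 40.7, 31.2 and 34.3 CPM (−3.35 ± 0.19), and *Dgka*, which removes diacylglycerol, from 411, 366 and 393 to 64.4, 47.3 and 59.4 CPM (−2.77 ± 0.16). The adaptor gene *Bank1* fell (−2.05 ± 0.10), as did *Rasgrp3* (−1.69 ± 0.12), *Lyn* (−1.20 ± 0.09), *Btk* (−0.98 ± 0.10) and *Plcg2* (−0.87 ± 0.10). Those that rose were a second SRC-family kinase gene, *Fyn*, from 109, 172 and 205 to 597, 767 and 954 CPM (2.25 ± 0.30), the exchange factor gene *Vav3* (1.66 ± 0.22), the PI3K adaptor gene *Pik3ap1*, known as BCAP (1.61 ± 0.10), and *Blk* (0.38 ± 0.08). *Malt1*, *Bcl10*, *Grb2* and *Pik3cd* did not pass.

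**Figure D3:**
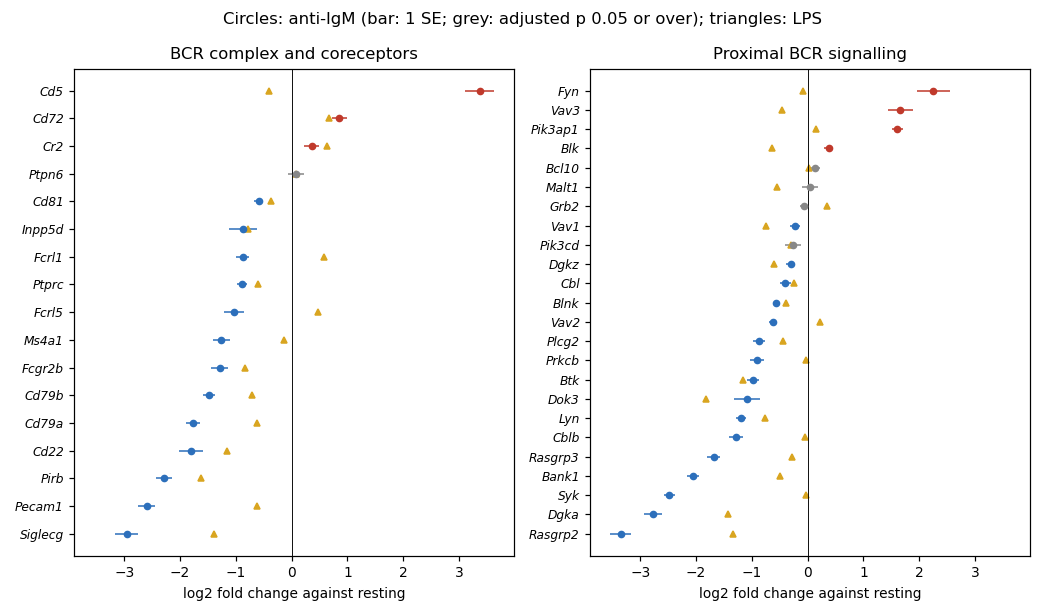
Log2 fold change against resting WT cells for 17 of the 18 members of the BCR complex and coreceptor list and 24 of the 25 members of the proximal signalling list. Circles with bars are anti-IgM with 1 SE (grey where the adjusted p was 0.05 or over) and triangles are LPS from the same fit, with *Siglecg* at −2.95 and *Rasgrp2* at −3.35 the lowest for anti-IgM.

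*Myc*, the growth regulator, went from 77.7, 126 and 96.1 to 823, 1021 and 920.1 CPM (3.20 ± 0.20, edgeR adjusted p = 1.29e-09). In the list of its network, 3 of 10 tested members rose and 5 fell, or 3 fell when WT anti-IgM replicate 2 or 3 or resting replicate 1 or 2 was left out. The fallen members were *Mxd4* (57.9 to 20.0 CPM on average, −1.53 ± 0.17), *Mxd3*, *Mxi1* and *Mxd1*, whose proteins compete with MYC for MAX, and *Mlx* (−0.23 ± 0.08). *Max* itself did not pass (0.10 ± 0.06). The D-type cyclin genes moved apart. *Ccnd2* rose from 83.6, 72.3 and 54.1 to 159, 185 and 134 CPM (1.19 ± 0.19), *Ccnd3* fell from 67.8, 67.7 and 60.7 to 33.0, 29.9 and 29.9 CPM (−1.08 ± 0.06), and *Ccnd1* was at 2.54 and 2.48 CPM. Their partner kinase genes *Cdk4* (105, 138 and 125 to 304, 358 and 331 CPM, 1.43 ± 0.12) and *Cdk6* (1.90 ± 0.19) rose. The list of G1 cyclins, CDKs and inhibitors had 7 of 19 tested members higher and 9 lower. Among the lower were *Cdkn1b*, encoding the CDK inhibitor p27 (186 to 78.2 CPM, −1.25 ± 0.07), and the pocket protein gene *Rbl2* (−1.26 ± 0.10). *E2f2* fell from 179.7, 111 and 81.8 to 18.4, 14.1 and 20.7 CPM (−2.81 ± 0.23).

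The lists of later cell cycle phases, DNA replication and mitosis, had median log2 fold changes of 0.10 and −0.18 at 4 hr. The background was 32.4% of all tested genes higher and 32.2% lower. Of 24 tested DNA replication genes 8 rose, 4 fell and 12 did not pass, with a median of 0.10 and *Pcna* the highest (14.9 to 30.8 CPM, 1.04 ± 0.08). The number lower was 2 with only the 2 groups in the fit and 1 without WT anti-IgM replicate 1, anti-IgM replicate 2 or resting replicate 3. Of 16 mitosis genes 0 rose, 1 fell and 15 did not pass in edgeR, and the one that fell was *Aurkb* (30.0 to 14.2 CPM on average, −1.08 ± 0.16). The number of mitosis genes lower was 3 with only the 2 groups in the fit and 6 when that fit had the replicate block or when WT anti-IgM replicate 3 was left out.

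The list of quiescence and transcript turnover factors mostly fell, 13 of 20 members against 3 that rose, with a median of −0.91. *Klf2*, which keeps lymphocytes resting and controls their trafficking, went from 437, 399 and 347 to 105, 77.9 and 88.7 CPM (−2.12 ± 0.17, edgeR adjusted p = 2.11e-08). *Foxo1* went from 462, 390.2 and 435 to 172, 149 and 161 CPM (−1.41 ± 0.09), *Txnip*, an inhibitor of glucose uptake, from a mean of 536 to 199 CPM (−1.43 ± 0.11), and *Sesn1*, an inhibitor of mTORC1, from 203 to 75.7 CPM (−1.42 ± 0.07). *Btg2* fell (−1.20 ± 0.13) while its relative *Btg1* rose (0.30 ± 0.07). *Zfp36l1* (0.79 ± 0.09) rose and *Zfp36l2* (−0.93 ± 0.08) fell, both encoding proteins that promote mRNA decay.

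All 30 members of the ribosome biogenesis list rose, with a median log2 fold change of 1.48, where the background of genes called higher is 32.4%. The smallest of these rises was *Tcof1* at 0.50 ± 0.06 and the largest *Gnl3*, nucleostemin, from 65.0, 91.5 and 88.1 to 331, 394 and 387 CPM (2.18 ± 0.13). *Ncl*, nucleolin, went from 967, 1251 and 1259.7 to 3292, 3974 and 4044 CPM (1.70 ± 0.12), and *Polr1b*, a subunit of RNA polymerase I, from a mean of 73.2 to 297 CPM (2.02 ± 0.13). The ribosomal protein genes moved less, with 46 of 82 higher, 1 lower and a median of 0.29. The number lower was 7 without WT resting replicate 1, 4 with the replicate block and 2 with DESeq2. Their levels are uncertain, since processed copies of these genes share reads and the handling of reads with several alignments is not given in the sources used here. The same holds for glycolysis genes such as *Gapdh*, listed at 2.82 and 5.40 CPM beside 511 and 654 CPM for *Aldoa*.

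Other biosynthetic lists rose with few members lower. Of 23 aminoacyl-tRNA synthetase genes 21 rose, with a median of 1.28 and *Iars* at 1.69 ± 0.14, and 2 fell, *Qars* (−0.11 ± 0.04) and *Vars* (−0.20 ± 0.06). *Qars* lost its call in 7 alternatives, among them leaving out WT anti-IgM replicate 1 or 2 or resting replicate 2 or 3, and with only the 2 groups in the fit neither was called. Of 53 translation initiation genes 40 rose and 5 fell, with *Eif4ebp1*, a brake on cap-dependent translation, at 1.75 ± 0.25 and *Eif4e*, the cap-binding factor it holds, at 1.45 ± 0.11. Of 15 serine and one-carbon genes 11 rose and 1 fell. *Shmt1* went from a mean of 19.3 to 133 CPM (2.77 ± 0.17) and *Psat1* from 43.9, 79.6 and 77.1 to 236, 420.4 and 404 CPM (2.40 ± 0.29). Of 18 purine and pyrimidine genes 15 rose, led by *Ctps* (34.1 to 138 CPM, 2.01 ± 0.15) and *Cad* (1.69 ± 0.14), and 2 fell. The number lower was 0 without WT anti-IgM replicate 1, anti-IgM replicate 2 or resting replicate 1, and 1 without anti-IgM replicate 3 or resting replicate 3. Of 9 polyamine genes 8 rose, with *Srm*, spermidine synthase, from 38.7, 57.9 and 45.5 to 229, 274 and 254 CPM (2.41 ± 0.16) and *Odc1*, the first enzyme of the pathway, from 15.3, 28.4 and 27.2 to 76.3, 106 and 107 CPM (2.01 ± 0.20).

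Amino acid transporters rose in 9 of 13 cases. *Slc7a5*, the large neutral amino acid transporter, went from 81.4, 160.5 and 157 to 549.7, 791 and 834 CPM (2.44 ± 0.24), and its partner *Slc3a2*, known as CD98, from a mean of 160.3 to 532 CPM (1.73 ± 0.16). *Slc1a4* (2.69 ± 0.33) and *Slc7a1* (2.03 ± 0.17) rose as well, while *Slc43a2*, another neutral amino acid carrier, fell from 170.5, 112 and 111 to 26.3, 18.7 and 22.6 CPM (−2.54 ± 0.19). In glycolysis 12 of 19 genes rose and 5 fell. The lactate exporter *Slc16a1* went from 27.2, 38.5 and 32.8 to 159, 198 and 194 CPM (2.48 ± 0.14) and *Hk2* from 18.2, 26.2 and 21.7 to 85.6, 121 and 109 CPM (2.24 ± 0.19), whereas *Hk1* fell (−0.80 ± 0.10), as did *Pdk1*, which holds back pyruvate oxidation (−1.01 ± 0.09). Of 21 cholesterol genes 16 rose, such as *Cyp51* (1.68 ± 0.13). The 2 that fell were the cholesterol efflux pumps *Abca1* (721 to 243 CPM, −1.57 ± 0.25) and *Abcg1* (66.6 to 13.4 CPM, −2.33 ± 0.41).

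Protein folding and mitochondrial genes rose by smaller amounts. Of 30 cytosolic and ER chaperone genes 25 rose and 0 fell in edgeR, with 1 lower under the replicate block, and *Hspa5*, the ER chaperone BiP, went from 424, 488 and 472 to 1195, 1239 and 1239 CPM (1.41 ± 0.08). Of 14 mitochondrial chaperones and proteases 12 rose, with *Hspd1* at 1.76 ± 0.14 and *Hspa9* at 1.64 ± 0.14. Of 24 mitochondrial import records 22 rose, one of them the RNA *Tomm6os*, which is no import protein. Of 78 mitochondrial ribosomal protein genes 55 rose and 5 fell, and of 83 respiratory chain genes 44 rose and 11 fell, with medians of 0.41 and 0.20. The numbers lower were 3 for the former without WT resting replicate 2, and 7 for the latter without anti-IgM replicate 2 or 3 or resting replicate 2. Proteasome genes divided by type. Of 37 subunits 30 rose and 3 fell, and the 3 that fell were the immunoproteasome subunits *Psmb9* (66.2, 70.0 and 74.1 to 28.6, 23.6 and 33.3 CPM, −1.30 ± 0.12), *Psmb8* (−1.15 ± 0.10) and *Psmb10* (−0.98 ± 0.08). Autophagy and lysosome genes showed no common direction, with 9 of 22 higher and 7 lower. Their median of 0.03 turned to −0.06 without WT anti-IgM replicate 1 and −0.01 without resting replicate 3. *Lamp1* (0.77 ± 0.07) and the cathepsin gene *Ctsb* (0.79 ± 0.08) rose while their regulator *Tfeb* fell (109.7 to 41.5 CPM, −1.40 ± 0.12).

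**Figure D4:**
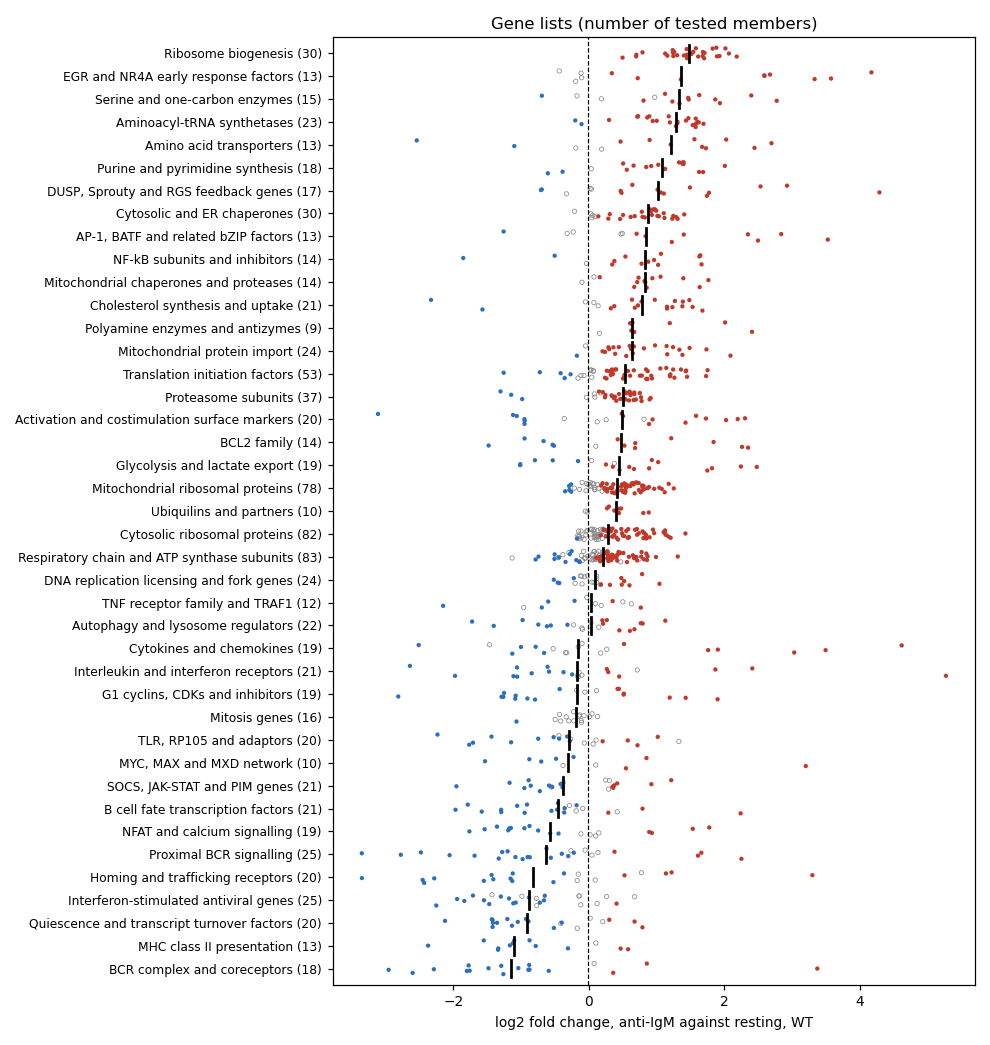
Log2 fold change of each tested member of the 41 gene lists, anti-IgM against resting in WT cells, with the number of tested members beside each name. Filled points have an adjusted p under 0.05 (red higher, blue lower), open points do not, bars are list medians and the dashed line is the median of all tested genes at −0.01, with ribosome biogenesis at 1.48 and the BCR complex at −1.15.

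B cell identity and fate factors mostly fell, 14 of 21 against 3 that rose. *Irf4*, which is induced by BCR signals in proportion to their strength and later drives plasma cells, went from 383, 422 and 421 to 1855, 1973 and 1954 CPM (2.24 ± 0.08). *Irf8* rose (0.79 ± 0.07), and *Xbp1* (0.29 ± 0.11), a call that was lost when any of 4 single libraries was left out, with edgeR adjusted p-values between 0.0686 and 0.113. The identity factors *Pax5* (214, 157 and 170.2 to 58.2, 48.0 and 50.5 CPM, −1.79 ± 0.12), *Ets1* (1613 to 413 CPM, −1.97 ± 0.10) and *Tcf3* (−1.58 ± 0.07) fell. *Bcl6*, the germinal centre repressor, went from 173, 160.0 and 138 to 85.3, 77.0 and 87.6 CPM (−0.91 ± 0.09), and *Bach2* from 806, 646 and 638 to 538, 534 and 560.1 CPM (−0.36 ± 0.09). *Prdm1*, the plasma cell factor, fell slightly (−0.46 ± 0.15).

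Among 20 activation and costimulation markers 10 rose and 6 fell. *Cd83* went from 197, 311 and 319 to 1190.0, 1232 and 1372 CPM (2.20 ± 0.16), *Cd69* from 44.8, 58.8 and 71.1 to 175, 144 and 151 CPM (1.43 ± 0.15) and *Il2ra* from 45.5, 42.1 and 28.6 to 182, 235 and 156 CPM (2.30 ± 0.20). *Cd86*, the CD28 ligand, went from 51.3, 99.4 and 135 to 173, 278 and 408 CPM (1.58 ± 0.40), with the same order of replicates in both groups. *Tfrc*, the transferrin receptor, went from 133, 149 and 130.4 to 484, 646 and 551 CPM (2.03 ± 0.14). *Icosl*, the ligand of ICOS on follicular T cells, fell from 308, 318 and 379 to 39.5, 29.7 and 47.6 CPM (−3.11 ± 0.16, edgeR adjusted p = 2.84e-10). *Cd40* (−0.95 ± 0.16), *Cd24a* (−1.06 ± 0.13) and *Cd48* (−1.12 ± 0.13) fell less.

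Of 14 BCL2 family genes 8 rose and 5 fell, on both sides of survival. *Bcl2l1*, encoding the survival protein BCL-XL, went from 13.7, 15.7 and 11.7 to 53.5, 52.2 and 42.3 CPM (1.84 ± 0.17) and *Bcl2a1b* from 1.02, 2.10 and 2.14 to 8.50, 8.79 and 10.5 CPM (2.35 ± 0.18, one of near-identical copies that share reads). The death-promoting *Bcl2l11*, encoding BIM, rose from a mean of 158 to 367 CPM (1.22 ± 0.14). *Bcl2* fell from 91.4, 96.0 and 97.7 to 38.6, 30.0 and 33.8 CPM (−1.48 ± 0.10) and *Mcl1* from 947 to 596 CPM (−0.67 ± 0.09). In the TNF receptor list 2 of 12 tested genes rose and 4 fell, with *Traf1* at 0.77 ± 0.17 and *Traf5* at −2.15 ± 0.12. The number lower was 2 without WT anti-IgM replicate 1, and the number higher was 1 without anti-IgM replicate 3 or resting replicate 2.

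Cytokine and cytokine receptor genes moved in both directions. Of the cytokines 31.6% rose and 26.3% fell, close to the 32.4% and 32.2% of all tested genes. Of the interleukin and interferon receptors 28.6% rose and 47.6% fell. Beside *Spp1*, *Ccl3* and *Ccl4*, the list of 19 tested cytokines held *Csf1* (15.3 to 57.1 CPM, 1.90 ± 0.29), *Tnf* (1.76 ± 0.15) and *Tgfb1* (0.52 ± 0.15) as higher, and 5 members were lower. The number lower was 3 with limma, without WT anti-IgM replicate 3 and without resting replicate 2. *Ltb*, lymphotoxin beta, fell from 307, 324 and 268 to 61.4, 45.0 and 51.3 CPM (−2.51 ± 0.12). Of 21 interleukin and interferon receptor genes 6 rose and 10 fell. *Il7r* rose from 2.88, 2.38 and 1.84 to 12.6, 17.4 and 7.24 CPM (2.41 ± 0.32), *Il10ra* fell from 191, 193 and 224 to 33.2, 26.9 and 37.7 CPM (−2.64 ± 0.17), *Il9r* fell (−1.97 ± 0.17), and *Il4ra* went from 304, 269 and 269.7 to 187, 164 and 201 CPM (−0.61 ± 0.09). Both chains of the interferon gamma receptor fell, *Ifngr1* (−1.06 ± 0.11) and *Ifngr2* (−1.11 ± 0.10). Of 21 SOCS, JAK-STAT and PIM genes 6 rose and 10 fell, with *Pim3* at 1.22 ± 0.09, *Socs3* at −1.95 ± 0.37 and *Jak1* at −0.89 ± 0.07.

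Receptors that guide B cells through lymphoid tissue fell in 12 of 20 cases and rose in 4. The integrin chain *Itgb7* went from 80.0, 74.6 and 89.1 to 5.78, 6.74 and 11.8 CPM (−3.35 ± 0.32) and *Itga4* from a mean of 405 to 83.3 CPM (−2.28 ± 0.12). Receptors for sphingosine-1-phosphate differed. *S1pr4* fell from 239.8, 217 and 184 to 45.0, 35.2 and 36.9 CPM (−2.45 ± 0.14) and *S1pr1*, needed for exit from lymphoid organs, from 442 to 203 CPM (−1.12 ± 0.22). *S1pr3* rose from 7.48, 16.4 and 13.8 to 92.9, 125 and 160.0 CPM (3.30 ± 0.26). *Spns2*, a transporter of the same lipid, fell from 50.4, 32.0 and 37.6 to 2.15, 1.59 and 2.89 CPM (−4.19 ± 0.31). The receptors that bring activated B cells to the T zone border rose modestly, *Ccr7* (0.53 ± 0.17) and *Gpr183*, known as EBI2, from 104, 133 and 149 to 238, 279 and 330.4 CPM (1.14 ± 0.14), while *Cxcr5*, which directs them into follicles, did not pass (−0.16 ± 0.13).

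Antigen presentation genes fell in 10 of 13 cases, with a median of −1.10, but not the class II chains themselves. *H2-Aa* rose (2404 to 3593 CPM, 0.58 ± 0.16), *H2-Eb1* rose less (0.47 ± 0.19) with overlapping groups, and *H2-Ab1* did not pass (0.10 ± 0.14). Only 1 member of the list was called higher, *H2-Aa*, with only the 2 groups in the fit and without WT anti-IgM replicate 2 or 3 or resting replicate 1 or 2. The peptide-loading genes *H2-DMa* (161, 178 and 201 to 63.1, 49.9 and 71.9 CPM, −1.55 ± 0.15) and *H2-Oa* (−1.34 ± 0.12) fell, as did the class II transactivator gene *Ciita* (−1.16 ± 0.12). *Marchf1*, a ubiquitin ligase that removes class II and CD86 from the surface, fell from 248, 216 and 243 to 48.0, 39.4 and 49.3 CPM (−2.37 ± 0.12). Of 20 genes for TLRs and their adaptors 10 fell and 4 rose. *Tlr1* fell from 122, 90.5 and 81.2 to 26.4, 18.3 and 17.6 CPM (−2.23 ± 0.16), *Tlr4* from 21.2 to 9.58 CPM (−1.15 ± 0.17), and *Tlr7* rose (0.72 ± 0.14).

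The largest falls among genes of at least 10 CPM included a calcium channel, receptors and enzymes. *Cacna1i*, a T-type calcium channel gene (GRCm38 chromosome 15, 80287238 to 80398292), had the largest fall of the named genes, from 219.9, 108 and 163 to 5.51, 4.28 and 8.61 CPM (−4.76 ± 0.38, edgeR adjusted p = 1.65e-08). *Acp5*, tartrate-resistant acid phosphatase, went from 140.2, 98.8 and 92.3 to 12.8, 10.4 and 12.3 CPM (−3.23 ± 0.23). *Fcgrt*, the neonatal Fc receptor, went from 14.0, 10.7 and 9.41 to 0.678, 0.795 and 1.32 CPM (−3.63 ± 0.26). *Pld4*, an endosomal nuclease, went from 125, 74.5 and 73.8 to 9.22, 8.60 and 13.1 CPM (−3.15 ± 0.26), and *Fgd2*, an exchange factor for CDC42, from 124, 93.8 and 84.7 to 8.30, 9.66 and 13.8 CPM (−3.26 ± 0.18). *Cplx2*, complexin 2, was spread out in both groups, from 60.2, 25.8 and 13.5 to 5.70, 2.54 and 1.27 CPM (−3.34 ± 0.61), and replicate 1 was the highest in both groups. The others were *Rflnb* (−3.70 ± 0.29), *Col27a1* (−3.65 ± 0.19), *B3gnt8* (−3.60 ± 0.26), *Pglyrp2* (−3.52 ± 0.22) and *Cyp4f18* (−3.31 ± 0.20), beside *Spns2*, *Rasgrp2*, *Itgb7* and *Icosl*.

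To ask which of these changes belonged to the BCR stimulus rather than to activation as such, anti-IgM was compared with LPS directly. The anti-IgM and LPS responses share their resting libraries, so the contrast of the stimulated libraries gives the test. By the stricter thresholds 157 genes were higher with anti-IgM and 198 higher with LPS (1.11% and 1.40%), and at an adjusted p under 0.05 the numbers were 2122 and 2468 (15% and 17.4%). Of the 243 genes past the stricter thresholds with anti-IgM, 156 were higher with anti-IgM than with LPS and 9 were lower. Their median log2 fold change against resting was 2.47 with anti-IgM and 1.39 with LPS. Of the 289 lower genes, 212 were lower with anti-IgM than with LPS and 0 were higher, with medians of −2.40 and −1.25. These genes were chosen for their anti-IgM change, and the same anti-IgM libraries enter the contrast with LPS. The tilt of the counts and the smaller LPS medians are therefore partly given by the choice. In the LPS libraries 31.2% of tested genes rose and 30.1% fell at an adjusted p under 0.05.

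Among genes with a symbol past the stricter thresholds both against LPS and against resting, with a mean of 10 CPM or more in the highest group, the 8 with the largest excess over LPS had mean levels with LPS below their resting means. *Spp1* was at 0.969, 1.22 and 1.00 CPM with LPS, below the resting libraries, and differed from anti-IgM by 6.21 ± 0.21 (edgeR adjusted p = 4.62e-12). *Il1r1* was at 0.452, 0.178 and 0.322 CPM (5.81 ± 0.53), *Egr2* at 12.2, 17.4 and 19.1 CPM (5.05 ± 0.20), *Plau* at 1.74, 5.74 and 5.58 CPM (4.73 ± 0.40) and *Gfi1* at 6.78, 7.14 and 6.30 CPM (4.19 ± 0.18). *Itga9* (4.18 ± 0.31), *Nrgn* (4.18 ± 0.38) and *S1pr3* (3.92 ± 0.27) completed this set. *Egr3* (2.89 ± 0.21), *Egr1* (2.05 ± 0.32) and *Nr4a1* (1.10 ± 0.20) were also higher with anti-IgM. In the EGR and NR4A list 9 of 13 members were higher and 3 lower with anti-IgM, and in the DUSP, Sprouty and RGS list 12 of 17 were higher and 2 lower. *Fyn* was at 95.0, 159 and 206 CPM with LPS (2.33 ± 0.30) and *Cd5* at 1.45, 0.940 and 0.931 CPM (3.78 ± 0.26).

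Genes lower with anti-IgM than with LPS included interferon-stimulated genes. All 25 members of the antiviral list were higher with LPS. With LPS 24 of them rose over resting, with a median log2 fold change of 2.47, while with anti-IgM 14 fell and 1 rose, with a median of −0.88 (2 rose with DESeq2, without WT anti-IgM replicate 2 or without resting replicate 3). *Ifit2* was at 17.2, 12.9 and 12.5 CPM at rest, 2.79, 2.73 and 3.44 CPM with anti-IgM and 51.5, 21.3 and 39.3 CPM with LPS. Its difference of anti-IgM from LPS was −3.65 ± 0.34. *Ddx58*, encoding the RNA sensor RIG-I, fell from 106, 80.7 and 87.8 to 29.6, 20.1 and 21.4 CPM with anti-IgM (−1.94 ± 0.21) and was at 131, 64.9 and 106 CPM with LPS. *Irf7* went from a mean of 14.0 CPM at rest to 5.12 CPM with anti-IgM (−1.47 ± 0.28). The call for *Ifit3* with anti-IgM against resting (−1.84 ± 0.67) was lost with limma and when any of 3 single libraries was left out. Against LPS, *Slfn5* (−4.01 ± 0.42), *Ifit1bl1* (−3.99 ± 0.38), *Nid1* (−3.80 ± 0.19), *Gbp2* (−3.65 ± 0.23), *Kynu* (−3.57 ± 0.11), *Dennd3* (−3.48 ± 0.19) and *Pglyrp2* (−3.31 ± 0.21) were the other 7 of the 8 lowest. This ranking was among genes with a symbol also past the stricter thresholds against resting with 10 CPM or more. Antiviral genes without a fall of that size against resting are not in this set. *Ccnd2* was at 1239, 1261 and 772 CPM with LPS, well above the 159, 185 and 134 CPM with anti-IgM (−2.77 ± 0.19). *Icosl* stayed at 322, 264 and 338 CPM with LPS (−2.99 ± 0.16), and *Syk* at a mean of 1142 CPM against 210.1 CPM with anti-IgM.

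Between the stimuli, most ribosome biogenesis and synthetase genes, *Myc* and *Klf2* did not pass, while most NF-kB genes did. Most tested genes did not pass either, with 15% higher and 17.4% lower with anti-IgM than with LPS. *Myc* was at 872, 1036 and 703 CPM with LPS, and its difference from anti-IgM was 0.08 ± 0.18 (edgeR adjusted p = 0.774), with the groups overlapping. Of 30 ribosome biogenesis genes 4 were higher with anti-IgM than with LPS and 0 lower, and each of the 30 rose with both stimuli against the shared resting libraries. Among the 23 synthetase genes 2 were higher and 2 lower with anti-IgM. *Klf2* differed by −0.25 ± 0.17, which did not pass, *Irf4* was slightly higher with anti-IgM (0.43 ± 0.07), and *Cd83* (−0.49 ± 0.15) and *Cd69* (−0.96 ± 0.15) were lower. The NF-kB list had 10 of 14 members lower with anti-IgM and 3 higher, with *Nfkbiz* at a mean of 700.2 CPM with LPS against 111 CPM. Doses and receptors differ between the stimuli, so these are differences between these 2 treatments.

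**Figure D5:**
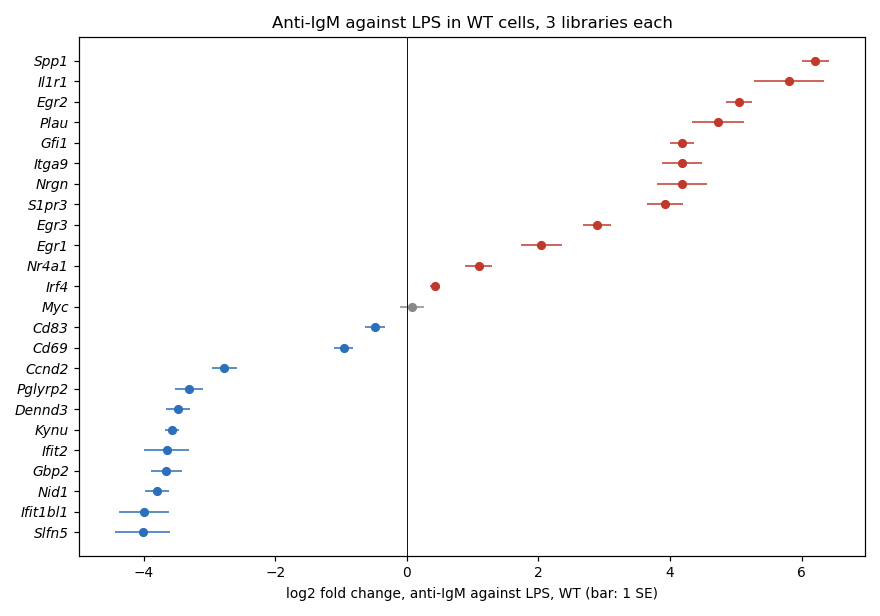
Log2 fold change of anti-IgM against LPS in WT cells with 1 SE for 24 genes, from 3 libraries per group. They are the 8 highest and 8 lowest with a symbol that passed the stricter thresholds in both contrasts with 10 CPM or more in the highest group, and 8 of the fixed genes, with *Spp1* (6.21) and *Slfn5* (−4.01) at the ends and *Myc* (grey) at 0.08.

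The same stimulus was applied to *Ubqln1*-/- cells with their own resting libraries. The targeted gene was at a mean of 96.8 ± 8.22 CPM (SD, n = 3) in resting *Ubqln1*-/- libraries and 234 ± 3.98 CPM in resting WT libraries. The reads that remain cannot be assigned to an exon from a count per gene. All 243 higher genes rose in *Ubqln1*-/- cells at an adjusted p under 0.05, and 288 of the 289 lower genes fell (32.9% and 32.4% of all tested genes rose and fell). Their median log2 fold changes were 2.47 and −2.25, beside 2.47 and −2.40 in WT cells. *Egr2* was at 4.26 ± 0.19, *Il1r1* at 5.11 ± 0.54, *Myc* at 3.20 ± 0.20, *Cacna1i* at −4.69 ± 0.37 and *Icosl* at −2.79 ± 0.16. The difference of the 2 responses passed an adjusted p under 0.05 for 0 of 14161 genes with edgeR, 0 with limma and 0 with DESeq2, and an unadjusted p under 0.05 for 140, 143 and 94 genes. With the replicate block in edgeR the latter count was 377, or 332 with only the groups compared, and it was between 127 and 255 when 1 library was left out (255 without WT resting replicate 1, 221 without resting replicate 3 and 212 without WT anti-IgM replicate 1), with 0 genes past the adjusted p in each. All of these unadjusted counts are below the share that an unadjusted p under 0.05 would give by chance, so the test may be conservative. The main fit also left out the pairing of the numbered libraries. A small difference between the genotypes in single genes is not shown to be absent by these counts.

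Ubiquilins are shuttle factors that bind ubiquitinated or membrane proteins and the proteasome. In WT cells anti-IgM raised *Ubqln1* from 237, 236 and 229.5 to 319.8, 339 and 319 CPM (0.48 ± 0.07) and *Ubqln4* from 123, 154 and 151 to 231, 294 and 266 CPM (0.88 ± 0.11). Each rose without overlap, as did 33.4% of all tested genes. *Ubqln2* was at 59.0, 61.3 and 62.1 and 58.8, 60.1 and 57.2 CPM (−0.05 ± 0.05) and did not pass. Of the 10 members of the list of ubiquilins and partners 8 rose and 0 fell, *Rad23b* with 0.80 ± 0.08, and *Bag6* did not pass (−0.02 ± 0.05).

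Reads over microRNA hairpins were also counted. In polyA libraries they come from primary transcripts or host genes, not from mature microRNAs. Of 72 tested hairpin loci 17 rose and 17 fell at an adjusted p under 0.05, where 32.4% of all tested genes rose and 32.2% fell. By the stricter thresholds 6 loci were higher and 1 lower, beside 1.72% and 2.04% of all tested genes. The neighbouring loci *Mir132* and *Mir212* rose from 0, 1 and 4 and 0, 2 and 2 counts at rest to 13, 23 and 22 and 22, 22 and 18 counts. Their log2 fold changes were 3.26 ± 0.67 and 3.65 ± 0.56. After LPS they were at 0, 2 and 4 and 0, 2 and 2 counts. The 3p arms of the 2 share a seed, bases 2 to 8, shown in capitals in RefSeq's GRCm38.p6 sequences.
mmu-miR-132-3p: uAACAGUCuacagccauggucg
mmu-miR-212-3p: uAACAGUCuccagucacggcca
Both lie on the plus strand, at chr11:75173723-75173744 and chr11:75173443-75173464. *Mir146* rose from 0, 2 and 0 to 16, 10 and 8 counts (3.69 ± 0.75), with 4, 7 and 4 with LPS, and the mature arm miR-146a-5p has another seed.
mmu-miR-146a-5p: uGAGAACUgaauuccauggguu
It lies on the minus strand at chr11:43374435-43374456. *Mir155*, a microRNA locus of activated B cells, went from 3, 7 and 6 to 25, 27 and 20 counts (1.94 ± 0.38) and 36, 83 and 46 with LPS. All of these counts are low, and the folds are correspondingly uncertain. Among the WT libraries, most reads of *Mir132*, *Mir212* and *Mir146* came from the anti-IgM group. These loci could hardly have passed the expression filter on their resting counts, so a rise was partly given by the filter.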

How the data were processed

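RNA of 18 mouse splenic B cell libraries (TruSeq v2) was sequenced, and the authors aligned the reads with GSNAP to GRCm38. The authors deposited, per library, read counts over the exons of each Entrez gene, the RPKM derived from them and the exon width of each gene. The counter, its annotation release and the handling of reads with several alignments are not given in the sources used here. The deposited counts were used, and RPKM and width were only checked. The notes name limma and R 3.2.2. Of 28096 genes 25035 (89.1%) took a RefSeq symbol (GRCm38.p6), and the unnamed hold 3.83 to 4.24% of the counts. Totals were 15368941 to 41072854 counts per library, and intervals beyond the replicate spread were not computed.

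All 18 libraries were fitted with edgeR 4.0.16 (quasi-likelihood, TMM, filterByExpr, R 4.3.3) with 6 group terms, and p-values were adjusted by Benjamini-Hochberg over 14161 genes. Alternatives used limma 3.58.1 (voom), DESeq2 1.42.0, other scalings, filters, thresholds and blocks. They also left out each library in turn, apart from those of *Ubqln1*-/- cells given LPS. The procedure was tested on simulated data. The standard error is the fold change divided by the square root of F. Members and gene lists were chosen with earlier results of these data known. Genes were named as the 15 strongest rises and falls past the stricter thresholds (10 CPM or more in the higher group, groups not overlapping), the 8 highest and 8 lowest against LPS among genes past those thresholds in both contrasts, up to 3 members per list and direction at an adjusted p under 0.05 without overlap (1 CPM or more), and 20 fixed genes. Other list members named in the text were picked after their values were seen. Same-numbered WT libraries deviated together (correlations 0.457, 0.228 and 0.479 of anti-IgM with resting, 0.497, 0.414 and 0.490 with LPS), so the numbers pair the libraries, and replicate 1 has no number in the labels. Promoters and microRNA sequences are RefSeq's. Some genes counted in the lists are not reported here by name.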

Additional observations from a re-analysis of the deposited data

How the results depend on the processing

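Requiring at least 10 counts in every library (12230 genes) left 346 genes past the stricter thresholds for anti-IgM against resting (140 higher) in place of 532, since genes silent in one group drop out. It left 197 against LPS (83 higher, 114 lower), 125 for LPS against resting (92 higher, 33 lower) and 335 in *Ubqln1*-/- cells (150 higher). With only the groups compared, 215 genes passed against LPS (93 higher, 122 lower). A log2 fold change over 1 in place of 2 gave 2403 genes (1116 higher, 1287 lower) and 986 against LPS (414 and 572). With limma 222 rose and 272 fell by the stricter thresholds, and with DESeq2 244 and 301. Leaving out 1 library gave 194 to 251 higher and 206 to 305 lower genes. The genes lower with LPS ranged from 40 (without WT LPS replicate 2) to 95 (without WT LPS replicate 3) around 63. The LPS, *Ubqln1*-/- and response-difference alternatives were chosen after seeing the data. The replicate block gave 260 higher and 311 lower genes in all 18 libraries and 243 and 287 in the compared groups, and moved no count of calls over all genes by over 1.5 times. No named gene called in either fit changed sign. The median of the autophagy list turned from 0.03 to −0.06 without WT anti-IgM replicate 1 and −0.01 without resting replicate 3. The median of the cytokine list turned from −0.16 to between 0.11 and 0.21 with at least 10 counts per library, with only the groups compared (with or without the replicate block), and without anti-IgM replicate 2 or resting replicate 3. The median of all genes (−0.01) was 0.0008 and 0.0014 without resting replicates 2 and 3. At an adjusted p under 0.05 DESeq2 called 4511 higher and 4528 lower, where edgeR called 4588 and 4558. Of the named genes, 11 lost their call in at least 1 alternative. The cause was not tested. Having 3 libraries per group and low counts limits single genes such as microRNA loci.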
